A study of Mus musculus with 11 samples.

Results

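Matrix metalloproteinases (Mmp) are zinc proteases that cut collagens, laminins and other proteins of the extracellular matrix, and the tissue inhibitors of metalloproteinases (Timp) bind them and block their active site. Here 10 genes of these families, 7 proteases and 3 inhibitors, are described in keratinocytes sorted from mouse skin wounds and from unwounded skin. They are *Mmp3*, *Mmp9*, *Mmp10*, *Mmp13*, *Mmp14*, *Mmp19*, *Mmp28*, *Timp1*, *Timp2* and *Timp3*, out of 27 Mmp and Timp genes and 24421 genes listed in the count tables. The members were chosen by family name with their read counts in these same libraries already known. Their fold changes and P values therefore give the size of a difference against the spread between libraries, and are no independent support for a response of the family.

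The study used mice aged 8 weeks, of both sexes, given as C57BL/6 in the labels and as C57BL/6J in the methods. *Grhl3* encodes a transcription factor of epidermal differentiation. It was deleted with Cre driven by the *Krt14* promoter, which is active in basal keratinocytes (*Grhl3*-cKO), and the wild-type (WT) littermates carried the same Cre. Punch wounds of 4 mm were made on the back, and at day 3 keratinocytes from the 1 mm wound margin and from distant unwounded skin were sorted as CD49F-positive cells negative for CD45, CD31 and TER119. RNA-seq libraries analysed were 2 from WT unwounded, 2 from WT wounded, 1 from *Grhl3*-cKO unwounded and 2 from *Grhl3*-cKO wounded keratinocytes. ATAC-seq, which marks open chromatin, gave 1 region list for each of the same 4 conditions. Library totals over genes were 15488699 and 16807451 counts for WT unwounded, 16653948 and 15418631 for WT wounded, 13497283 for *Grhl3*-cKO unwounded and 15223569 and 14279568 for *Grhl3*-cKO wounded keratinocytes. At these depths a count of 0 allows up to 0.178 to 0.222 CPM (the usual depth-scaled count, here over all counts on genes), taking 3 counts as the floor, and all intervals and floors below cover counting error only.

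The targeted gene, on chromosome 4 from 135541888 to 135573630 (mm10), was looked at before any member. *Grhl3* was at 122 and 83.2 CPM in unwounded WT, 110 and 90.0 CPM in wounded WT, 76.2 CPM in the *Grhl3*-cKO unwounded library and 116 and 104 CPM in the *Grhl3*-cKO wounded ones. The wounded groups thus overlapped, and edgeR put the log2 fold change between them at 0.17, with a standard error (SE) of 0.21. Reads were counted over the gene as a whole, without its deleted exons set apart, so they do not test the genotype, which is taken from the label. The study reports that deletion was checked in these mice by quantitative PCR across the deleted region. The libraries are called cKO-labelled from here on. The unwounded cKO-labelled library also stood apart in sex. It had 14854 counts of *Xist*, which is made from the inactive X chromosome of females, and 0 counts of 4 Y-linked genes. In each of the remaining 6 libraries *Xist* was at 3 to 32 counts, and the Y-linked genes together came to 2580 to 3589. Where this library is set against WT libraries, sex and genotype cannot be told apart. Against the cKO-labelled wounded libraries, which had Y-linked counts, sex and wounding cannot be told apart. Its own labels disagree on its replicate number. The labels do not say that replicates came from separate animals, so P values here measure the spread between these libraries, whatever its source. Replicate counts differed by more than sampling noise, and chi-square divided by its degrees of freedom was 29.2 for WT unwounded, 39.9 for WT wounded and 34.9 for cKO-labelled wounded libraries.

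Metalloproteinases are secreted or membrane-bound proenzymes whose propeptide must be removed before they cut. In healing skin, keratinocytes at the wound edge are known to make several of them while they move over the wound bed, and the ratio of proteases to inhibitors is held to shape how much matrix is cut. *Mmp14* sits in the plasma membrane, where it cuts collagen and activates pro-Mmp2 together with *Timp2*. Levels of different genes were compared as CPM per kilobase of exon, over all 7 libraries. *Mmp14* had the highest median, 21.1 (range 15.5 to 24.6), followed by *Mmp3* at 19.6 (10.04 to 23.8), *Timp2* at 18.5 (10.8 to 26.01) and *Timp3* at 10.1 (7.35 to 27.0). The ranges of these 4 genes overlapped, so their order is not set beyond the spread. *Mmp28* followed at 4.93 (2.22 to 6.48), below the lowest value of any of those 4. *Mmp13* at 2.58 (1.11 to 7.08) and *Mmp9* at 0.930 (0 to 10.98) overlapped with *Mmp28*. *Timp1* at 0.518 (0 to 0.947) and *Mmp10* at 0.488 (0.129 to 3.35) were near the floor in several libraries. *Mmp19* was at 0 in 4 of 7 libraries and never above 0.135, and it was the one member that did not pass edgeR's filter on low counts, so 9 of 10 members were tested.

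Summed over the 23 Mmp genes, the same scale gave 58.9 to 84.7 CPM per kilobase, highest in WT wounded replicate 2. The largest share came from *Mmp14* in 3 libraries and from *Mmp3* in 4, between 26.7% and 41.1% of the sum. Summed over the 4 Timp genes it was 20.8 to 46.5 CPM per kilobase, lowest in WT wounded replicate 2 and highest in WT wounded replicate 1. *Timp2* made the largest Timp share in 5 libraries. *Timp3* did so in WT wounded replicate 1, at 58.1%, and in cKO-labelled wounded replicate 2, at 54.5%. The WT wounded replicates thus lay at opposite ends of the Timp range, and their Mmp sums were 59.2 and 84.7.

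**Figure D1:**
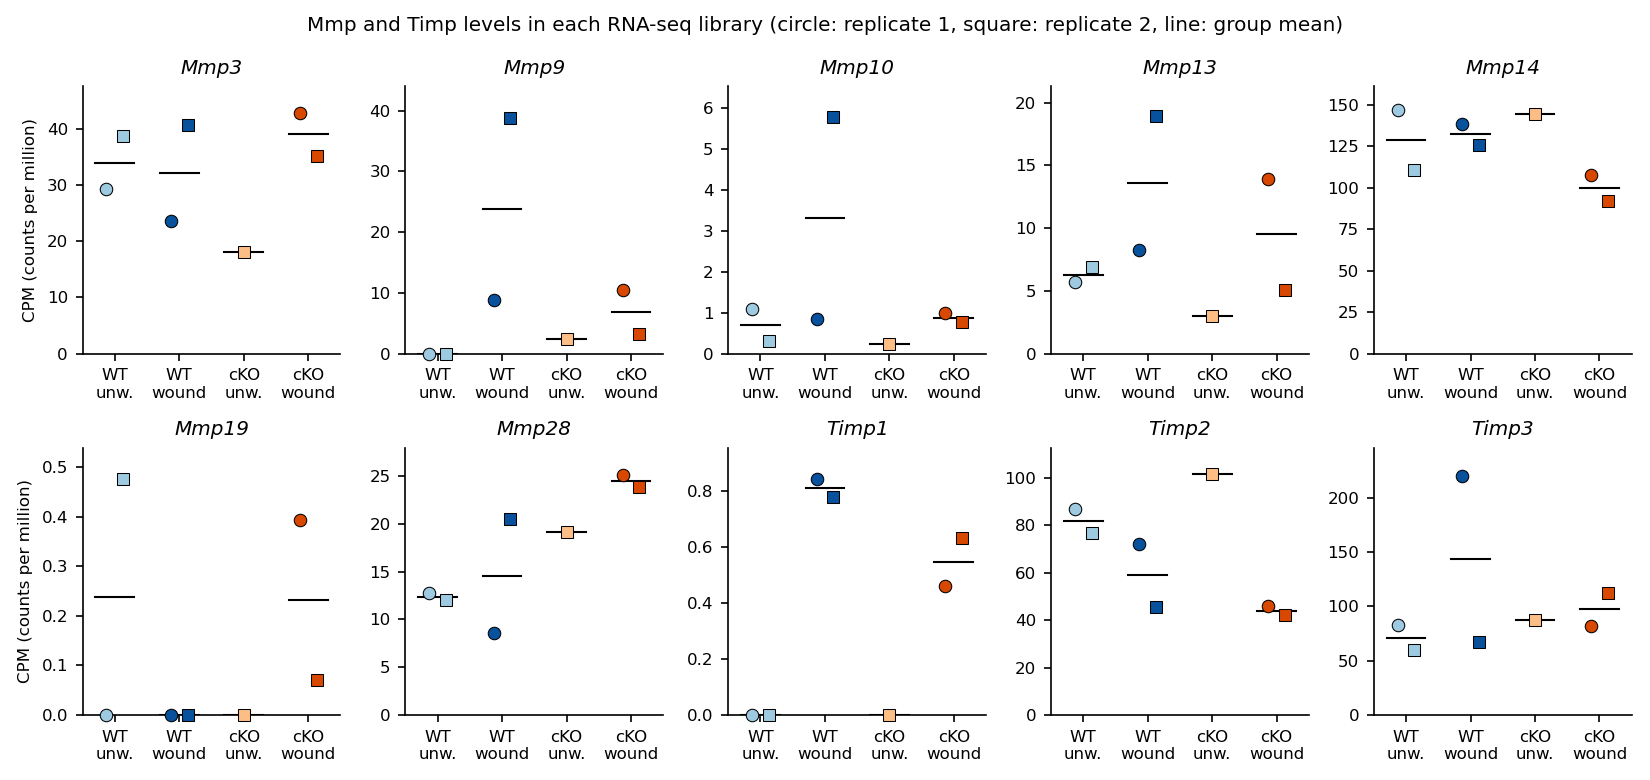
Level of each of the 10 members in CPM (vertical axis, starting at 0 and scaled per gene) in 7 RNA-seq libraries of 4 groups, where circles are replicate 1, squares are replicate 2 and lines are group means. *Mmp9* and *Timp1* are at 0 in both WT unwounded libraries, *Timp2* is lower in all 4 wounded than in all 3 unwounded libraries, and WT wounded replicate 2 (38.8 CPM of *Mmp9*) or replicate 1 (220 CPM of *Timp3*) sets several group means.

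Wounding of WT skin was compared first, with 2 wounded against 2 unwounded libraries. *Mmp9*, a gelatinase that cuts denatured collagen and basement membrane collagen, gave the clearest difference. Its gene spans 164940780 to 164955850 of chromosome 2, plus strand. *Mmp9* had 0 counts in both WT unwounded libraries and 148 and 599 counts (8.89 and 38.8 CPM) in the WT wounded ones. Both wounded libraries lay above both unwounded ones, and the wounded replicates differed from each other by more than 4-fold. Against a floor of 3 counts over the unwounded group, *Mmp9* was at least 251-fold higher after wounding, at least 95.7-fold with WT wounded replicate 1 alone and at least 418-fold with replicate 2 alone. It ranked 1 by P among 14045 genes tested (unadjusted P = 3.06e-07, adjusted p = 0.00430, edgeR's quasi-likelihood test after Benjamini-Hochberg adjustment). Over the alternatives run this adjusted p lay between 4.79e-34 and 0.303. It was above 0.05 when only the 4 libraries compared were fitted (0.303), without WT unwounded replicate 2 (0.0640) and without the unwounded cKO-labelled library (0.0540).

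*Mmp13*, a collagenase that cuts fibrillar collagen, had 88 and 116 counts (5.68 and 6.90 CPM) in WT unwounded and 137 and 292 counts (8.23 and 18.9 CPM) in WT wounded libraries. The wounded pair lay above the unwounded pair, with means of 13.6 ± 7.57 against 6.29 ± 0.863 CPM (SD, n = 2). Fitted, this was a log2 fold change of 1.14 (SE 0.51, unadjusted P = 0.0392) that shrank to 0.39 (unadjusted P = 0.507) without WT wounded replicate 2. The stromelysins *Mmp3* and *Mmp10* cut proteoglycans, laminin and fibronectin and can activate other proenzymes. *Mmp3* had 29.2 and 38.7 CPM before and 23.5 and 40.7 CPM after wounding, and the groups overlapped. *Mmp10* was scarce, with 17 and 5 counts before and 14 and 89 after wounding, so that 1 of the 2 wounded libraries carried its log2 fold change of 2.26 (SE 1.29, unadjusted P = 0.0987), which was 0.27 without it. *Mmp14* had 147 and 110 CPM before and 138 and 126 CPM after wounding, a log2 fold change of 0.06 (SE 0.19). *Mmp28*, also called epilysin and known from the epidermis, had 12.7 and 12.1 CPM before and 8.59 and 20.6 CPM after wounding, with the wounded libraries on either side of the unwounded pair. Reads of *Mmp28* may include those of *1700020L24Rik*, which overlaps its end on the other strand and had 64 to 218 counts, because the use of strand in counting is not stated. *Mmp19* had 8 counts in WT unwounded replicate 2 and 0 in the other WT libraries.

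Among the inhibitors, *Timp1*, a secreted inhibitor that binds pro-Mmp9, had 0 counts in both WT unwounded libraries and 14 and 12 counts (0.841 and 0.778 CPM) in the WT wounded ones. It was at least 8.73-fold higher against the same floor, at a level that 26 counts in all support (unadjusted P = 0.0462). That P was 0.0789 with the replicate number as a block, 0.0219 without the unwounded cKO-labelled library and 0.0697 to 0.118 without any 1 of the other 6 libraries. *Timp1* passed edgeR's filter on low counts only through the WT wounded libraries, where it was highest, so these P values give no support for a difference. The gene lies inside *Syn1*, on the other strand, which had 8 counts in WT wounded replicate 1 and 0 in the other WT libraries. *Timp3*, which binds to the matrix and also blocks Adam proteases, had 1275 and 1006 counts (82.3 and 59.9 CPM) before and 3660 and 1031 counts (220 and 66.9 CPM) after wounding. Only WT wounded replicate 1 was high, and replicate 2 lay between the unwounded libraries. Its log2 fold change of 1.03 (SE 0.36, unadjusted P = 0.0113) was -0.06 without WT wounded replicate 1 and 1.64 without replicate 2, and DESeq2 gave an unadjusted P of 0.123. *Syn3*, on the other strand around *Timp3*, had 17 to 78 counts per library. *Timp2* had 86.6 and 76.5 CPM before and 72.2 and 45.4 CPM after wounding, lower in both wounded libraries (log2 fold change -0.45, SE 0.22, unadjusted P = 0.0593). It was -0.17 (unadjusted P = 0.491) without WT wounded replicate 2 and -0.82 (unadjusted P = 0.00393) without replicate 1.

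By count, 4 of the 9 tested members were under an unadjusted P of 0.05 here, all higher (*Mmp9*, *Mmp13*, *Timp1* and *Timp3*), against 4.84% of all genes tested. With an adjusted p under 0.05 it was 1 of 9, *Mmp9*, against 0.0285% of all genes (4 genes, edgeR's quasi-likelihood test after Benjamini-Hochberg adjustment). The median log2 fold change of the 9 was 1.03, against 0.00 over all genes tested. It is the value of *Timp3*, which was -0.06 without WT wounded replicate 1. Since the members were chosen with these counts known, and *Timp1* passed the filter only through the WT wounded libraries, nothing is read from these shares. With 2 libraries a side, an exact permutation cannot go below 0.333, so the P values lean on a spread estimated over many genes, with a biological coefficient of variation of 31.6%. In sorted bulk cells, more RNA per cell and more cells of a type that makes it cannot be told apart.

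The 4 wounded and 3 unwounded libraries of both genotypes were then compared with genotype in the model. This comparison reuses the WT libraries above, so its values stand beside those and add only the 3 cKO-labelled libraries. *Timp2* was the clearest case. It had 86.6, 76.5 and 101 CPM in the unwounded libraries and 72.2, 45.4, 45.8 and 41.9 CPM in the wounded ones. Every wounded library lay below every unwounded one, with 4 of 4 showing the direction, and the unwounded cKO-labelled library was the highest. That library is female by *Xist*, and in its distance from the cKO-labelled wounded libraries sex and wounding cannot be told apart. The log2 fold change was -0.76 (SE 0.19, unadjusted P = 0.00140), while the adjusted p of edgeR's quasi-likelihood test after Benjamini-Hochberg adjustment was 0.220. Leaving out 1 library at a time gave -0.45 (unadjusted P = 0.0712, without the unwounded cKO-labelled library) to -1.02, always lower. The adjusted p was 0.0475 with DESeq2, 0.0429 with edgeR's likelihood ratio test and 0.00893 without WT wounded replicate 1.

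*Mmp9* had 0, 0 and 2.37 CPM in unwounded and 8.89, 38.8, 10.4 and 3.29 CPM in wounded libraries. The groups did not overlap, although the unwounded cKO-labelled library, with 32 counts, came close to the lowest wounded library, with 47 counts. In CPM, *Mmp9* was 22.1-fold higher in the wounded libraries (95% counting interval 15.6 to 32.5), a ratio that rests on the 32 counts of the 1 unwounded cKO-labelled library. The fitted log2 fold change of 4.37 was 3.38 to 11.55 over the libraries left out, highest without that library. With all libraries it had an unadjusted P of 0.00194 and an adjusted p of 0.229 in edgeR's quasi-likelihood test. *Timp1* had 0 counts in all 3 unwounded libraries and 14, 12, 7 and 9 counts in the 4 wounded ones, at least 10.4-fold higher. *Mmp13* had 5.68, 6.90 and 2.96 CPM in unwounded and 8.23, 18.9, 13.9 and 5.04 CPM in wounded libraries. One wounded library, cKO-labelled replicate 2, lay below both WT unwounded ones, so the groups overlapped (log2 fold change 1.34, SE 0.42, unadjusted P = 0.00611, or 0.0674 without WT wounded replicate 2). *Mmp10* (log2 fold change 2.15) and *Timp3* (0.66, unadjusted P = 0.0490) also had an unadjusted P under 0.05, that of *Mmp10* just so (0.0499982), and the log2 fold change was 1.05 (unadjusted P = 0.514) for *Mmp10* without WT wounded replicate 2 and 0.04 for *Timp3* without WT wounded replicate 1. *Mmp3* (0.38, SE 0.28), *Mmp14* (-0.18, SE 0.16) and *Mmp28* (0.29, SE 0.28) did not. In all, 6 of 9 members passed an unadjusted P of 0.05, with 5 higher and 1 lower, against 6.61% of all genes tested. Among the higher ones, *Timp1* had passed the filter on low counts only through the WT wounded libraries. An adjusted p under 0.05 was found for 0 of 9 by edgeR's quasi-likelihood test, against 0.0356% of all genes, while DESeq2 gave 1 (*Timp2*) and the likelihood ratio test 3 (*Mmp9*, *Timp1* and *Timp2*). An exact permutation of 4 against 3 libraries cannot go below 0.0571.

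**Figure D2:**
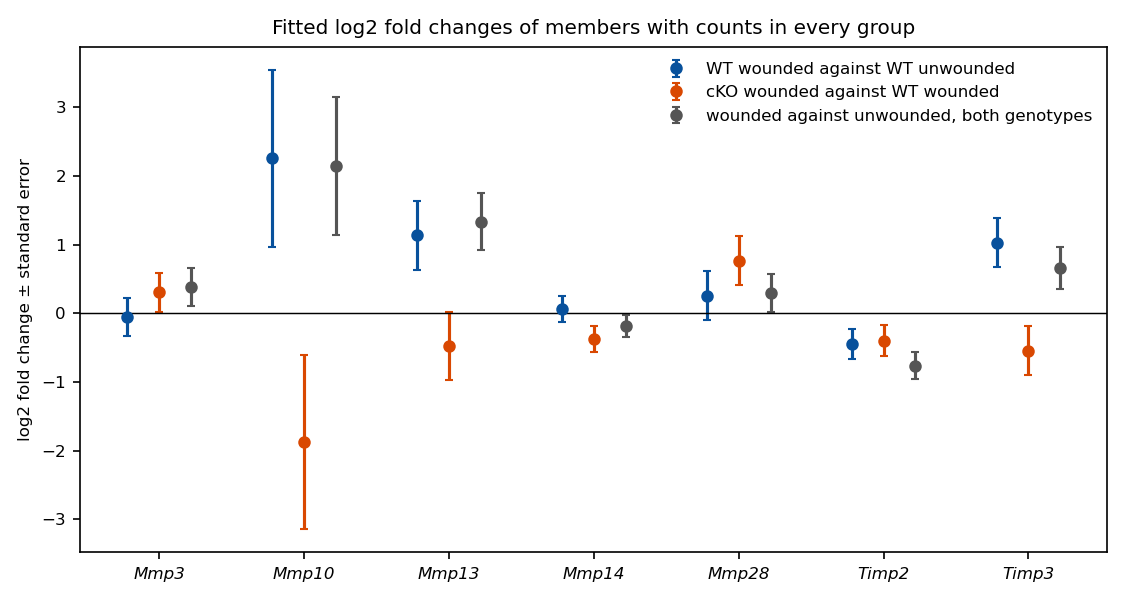
Fitted log2 fold changes (vertical axis) with standard errors as bars for the 7 members that had counts in all 4 groups, in 3 comparisons that share libraries. *Timp2* lies below 0 in each of the 3, from -0.40 to -0.76, and the bars of *Mmp10* are the longest.

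Between the genotypes, the 2 cKO-labelled wounded libraries were compared with the 2 WT wounded ones. *Mmp9* had 10.4 and 3.29 CPM in the cKO-labelled and 8.89 and 38.8 CPM in the WT wounded libraries. The groups overlapped, since cKO-labelled replicate 1 lay above WT replicate 1, and WT replicate 2 was the high library. The log2 fold change was -1.76 (SE 0.62, unadjusted P = 0.0129), and the adjusted p was 1 in edgeR's quasi-likelihood test after Benjamini-Hochberg adjustment. Without WT wounded replicate 2 it was -0.32 (unadjusted P = 0.680), and without cKO-labelled wounded replicate 2 it was -1.14 (unadjusted P = 0.152). *Mmp28* had 25.1 and 23.8 CPM in the cKO-labelled and 8.59 and 20.6 CPM in the WT wounded libraries, with both cKO-labelled values on top. Its log2 fold change was 0.77 (SE 0.36, unadjusted P = 0.0475), 0.27 without WT wounded replicate 1 and 1.55 without WT wounded replicate 2. That P was 0.0630 with DESeq2. In edgeR's quasi-likelihood test it was 0.0608 with only the 4 libraries compared and 0.0595 without the unwounded cKO-labelled library. The unwounded cKO-labelled library, at 19.1 CPM, also lay above both WT unwounded libraries. *Mmp14* had 107 and 92.2 CPM in the cKO-labelled and 138 and 126 CPM in the WT wounded libraries, lower in both (log2 fold change -0.38, SE 0.19, unadjusted P = 0.0644), or -0.24 (unadjusted P = 0.317) without cKO-labelled wounded replicate 2. *Timp1*, with 7 and 9 counts, was also below the 14 and 12 counts of WT wounded libraries, a ratio of 0.669 with a 95% counting interval of 0.335 to 1.29. *Mmp3*, *Mmp10*, *Mmp13*, *Timp2* and *Timp3* overlapped between the groups. The *Timp3* value of -0.54 was 0.55 without WT wounded replicate 1 and -1.15 without WT wounded replicate 2. *Mmp19* had 6 and 1 counts in the cKO-labelled wounded libraries, at most 0.394 CPM.

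Of 9 members, 2 had an unadjusted P under 0.05 between the wounded genotypes, *Mmp9* lower and *Mmp28* higher, against 4.04% of all genes tested (275 higher and 292 lower). With an adjusted p under 0.05 it was 0 of 9 and 0.0% of all genes by edgeR's quasi-likelihood test, and the smallest adjusted p of any gene was 0.0729. By DESeq2, 1 member had an unadjusted P under 0.05, and over all genes an adjusted p under 0.05 was reached by 3 genes with DESeq2 and 1 with the likelihood ratio test. The median log2 fold change of the members was -0.48, against -0.01 over all genes tested. It is the value of *Mmp13*, which was -1.43 to 0.26 over the libraries left out.

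In the cKO-labelled libraries the wound response rests on 1 unwounded library, so it was described without a test, by asking that both wounded libraries lie at least 2-fold above it, or both at least 2-fold below (log2 CPM, prior count 2). This held for 3 of 9 members, against 9.58% of all genes tested. They were *Timp2* (-1.12 and -1.32), *Mmp10* (1.69 and 1.32) and *Timp1*. *Timp1* had 0 counts in the unwounded library and 7 and 9 in the wounded ones, at least 2.07-fold and at least 2.84-fold higher against the floor, and its place under the rule leans on the prior count. *Mmp10* rests on 3 counts in the unwounded library and 15 and 11 in the wounded ones, a ratio of 3.96 (95% counting interval 1.22 to 20.5). *Mmp9* had 32 counts in the unwounded cKO-labelled library and 158 and 47 in the wounded ones, with log2 differences of 2.1002 and 0.41. *Mmp13* (2.21 and 0.69) and *Mmp3* (1.27 and 0.91) likewise passed 2-fold in replicate 1 and not in replicate 2. *Mmp14*, *Mmp28* and *Timp3* stayed within 2-fold in both. The unwounded library is female by *Xist* and both wounded ones had Y-linked counts, so sex and wounding cannot be told apart in these differences.

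The genotype difference of the wound response was taken from the same fit. Its unwounded cKO-labelled arm is 1 library, of the other sex than the rest by *Xist*, assumed to vary like the other groups, so the P values here describe the counts and do not show that the response differs by genotype. Here 3 of 9 members had an unadjusted P under 0.05, against 6.77% of all genes. *Mmp3* was among them with a difference of 1.16 (SE 0.46, unadjusted P = 0.0227), from 18.1 CPM before to 42.8 and 35.2 CPM after wounding in the cKO-labelled libraries, while the WT groups overlapped. Its P was 0.0761 without WT unwounded replicate 2, 0.0777 without WT wounded replicate 1 and 0.0840 without cKO-labelled wounded replicate 1. *Timp2* had a difference of -0.77 (SE 0.35, unadjusted P = 0.0417), or -0.40 (unadjusted P = 0.258) without WT wounded replicate 1. Its P was 0.115 without WT unwounded replicate 2 and likewise without cKO-labelled wounded replicate 2, and 0.0521 with DESeq2. With an adjusted p under 0.05 it was 1 of 9, *Mmp9*, against 0.185% of all genes (adjusted p = 0.0318, edgeR's quasi-likelihood test after Benjamini-Hochberg adjustment). In WT libraries *Mmp9* was at least 251-fold higher after wounding, and in cKO-labelled libraries 2.93-fold higher (95% counting interval 2.01 to 4.398), or 4.38-fold (2.98 to 6.62) with replicate 1 alone and 1.39-fold (0.867 to 2.25) with replicate 2 alone. The fitted log2 difference of -9.98 (SE 1.74) depends on the 0 counts of the WT unwounded group and is no measure of size. Before wounding, *Mmp9* was at least 25.5-fold higher in the cKO-labelled library than in the WT libraries, a comparison of 1 library with *Xist* against libraries with Y-linked counts. This value needs the 32 counts of the lone library, and the adjusted p was 0.116 without WT unwounded replicate 2, 0.0614 without cKO-labelled wounded replicate 1 and 0.157 without replicate 2. Over all alternatives run it lay between 4.79e-14 and 0.157.

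The other 17 genes of the families add little RNA in these cells, apart from a few. *Mmp15*, a membrane-bound relative of *Mmp14*, had 32.5 to 51.7 CPM, and *Mmp2*, a gelatinase that *Mmp14* activates, had 9.72 to 37.3 CPM. *Mmp7* and *Mmp20* had 0 counts in all 7 libraries, and 10 of the 17 were below 1 CPM in every library. Of the 17, 8 passed the filter on low counts. None of these 8 had an unadjusted P under 0.05 between WT wounded and unwounded libraries or between the wounded genotypes by edgeR's quasi-likelihood test. Over both genotypes *Mmp2* had a log2 fold change of -0.70 (SE 0.29, unadjusted P = 0.0280), from 25.0, 19.99 and 37.3 CPM in unwounded to 21.4, 14.5, 9.72 and 21.9 CPM in wounded libraries. The groups overlapped, since WT wounded replicate 1 and cKO-labelled wounded replicate 2 lay above WT unwounded replicate 2. *Mmp1a* and *Mmp1b*, which lie on chromosome 9 with *Mmp13*, had at most 1.25 and 3.11 CPM.

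Proteases of the related Adam family shed membrane proteins, and those of the Adamts family cut proteoglycans and process collagens. Of 9 Adam genes tested, 2 were higher after wounding in WT at an unadjusted P under 0.05, and 0 lower. Over all genes tested, the share under 0.05 was 4.84% in WT, 4.04% between the wounded genotypes and 6.61% over both genotypes. These shares stand beside the list counts here and below. *Adam12* had 0 and 0.297 CPM before and 2.88 and 6.49 CPM after wounding (log2 fold change 4.91, SE 1.42), and *Adam8* had a log2 fold change of 0.59 (SE 0.21) that was 0.33 without WT unwounded replicate 2. *Adam12* was lower in the cKO-labelled wounded libraries, at 0.788 and 0.490 CPM (log2 fold change -2.83, SE 1.25). Of 18 Adamts genes tested, 3 were under 0.05 in WT, all higher, among them *Adamts17* (1.03) and *Adamts14* (0.83, or 0.39 without WT unwounded replicate 2). Between the wounded genotypes 1 was higher, *Adamts14* (0.84, or 0.44 without cKO-labelled wounded replicate 2), and 2 were lower, among them *Adamts13* (-1.32). Over both genotypes 2 Adam genes and 3 Adamts genes were higher, among them *Adam12* (5.04), *Adam8* (0.52), *Adamts17* (1.17) and *Adamts2* (2.99), and none lower. Median log2 fold changes in WT were 0.30 for the Adam and 0.65 for the Adamts genes, against 0.00 over all genes. None of these genes had an adjusted p under 0.05 in edgeR's quasi-likelihood test, whereas *Adam12* did over both genotypes with DESeq2, and in WT and over both genotypes with the likelihood ratio test.

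Of 9 other genes listed for protease inhibition or procollagen processing, not all of them inhibitors, 4 passed the filter on low counts. None of the 4 had an unadjusted P under 0.05 in WT or between the wounded genotypes by edgeR's quasi-likelihood test, and 1 was lower over both genotypes. That gene is *Spock2*, a proteoglycan of the testican family, which was chosen for mention after its values were seen. It had 15.4, 12.7 and 88.6 CPM in unwounded and 13.9, 9.21, 16.8 and 13.7 CPM in wounded libraries, so its log2 fold change of -1.27 comes from the lone unwounded cKO-labelled library.

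The proteases that activate metalloproteinases, with their receptors and binding partners, made a list of 22 genes, all tested. After wounding in WT, 3 were higher and 1 lower at an unadjusted P under 0.05. *Itga2*, a collagen-binding integrin chain, had 20.4 and 22.1 CPM before and 28.2 and 61.8 CPM after wounding (log2 fold change 1.11, SE 0.33), which was 0.42 without WT wounded replicate 2. *Lcn2*, whose protein binds *Mmp9* and shields it from breakdown, went the other way, with 47.2 and 67.4 CPM before and 26.8 and 34.1 CPM after wounding (log2 fold change -0.89, SE 0.24). Between the wounded genotypes 1 was higher and 3 lower. The collagen receptor *Ddr2* had 58.4 and 43.2 CPM in the cKO-labelled and 17.7 and 24.5 CPM in the WT wounded libraries, a log2 fold change of 1.30 (SE 0.32, unadjusted P = 8.93e-04). *Itgb1* was lower (-0.56, SE 0.20, or -0.29 without WT wounded replicate 2). Over both genotypes 4 were higher and 1 lower, among them the urokinase receptor *Plaur* (1.26, SE 0.37). The medians of the list were 0.17, -0.10 and 0.13 in the 3 comparisons, against 0.00, -0.01 and 0.01 over all genes tested.

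Proteins that metalloproteinases cut were listed in a basement membrane and an interstitial group of 13 genes each, all tested. Of the basement membrane genes, 5 were higher and 0 lower after wounding in WT at an unadjusted P under 0.05, by edgeR's quasi-likelihood test. Of all genes tested, 4.84% were under 0.05 in WT, 4.04% between the wounded genotypes and 6.61% over both genotypes. *Lama3*, a laminin chain, had 361 and 355 CPM before and 516 and 1122 CPM after wounding (log2 fold change 1.22, SE 0.26, unadjusted P = 2.34e-04). Both wounded libraries lay above both unwounded ones, and without replicate 2, the highest, the value was 0.54. *Lamb1*, another laminin chain, had a log2 fold change of 0.96 (SE 0.24). Between the wounded genotypes 0 were higher and 5 lower. *Lamb1* had 379 and 442 counts in the cKO-labelled and 1221 and 771 counts in the WT wounded libraries (log2 fold change -1.12, SE 0.24, unadjusted P = 2.71e-04). *Hspg2*, which encodes perlecan, had 197 and 189 CPM against 338 and 277 CPM (log2 fold change -0.65, SE 0.16). Over both genotypes 5 were higher and 0 lower, among them *Lama3* (0.88, or 0.47 without WT wounded replicate 2). The medians were 0.56 in WT, -0.35 between the wounded genotypes and 0.28 over both genotypes. Over all genes tested they were 0.00, -0.01 and 0.01. Of the interstitial genes, 3 were higher in WT, among them *Col1a2* (1.17) and *Sparc* (0.63), and 2 were lower between the wounded genotypes, *Col5a2* (-1.09, or -0.12 without WT wounded replicate 1) and *Tnc* (-0.83, or -0.43 without cKO-labelled wounded replicate 2). Over both genotypes 5 were higher and 2 lower, among them *Col5a1* (0.65), *Col1a2* (0.88) and *Col6a2* (-0.74, or -0.40 without the unwounded cKO-labelled library). None of the genes of these 2 lists had an adjusted p under 0.05 in the 3 comparisons by edgeR's quasi-likelihood test. With the likelihood ratio test *Lama3* passed in WT, and with DESeq2 none of the genes named here from these 2 lists did. The comparisons in WT and between the wounded genotypes share the WT wounded libraries, so opposite signs in them are not separate evidence. Among the genes named from the related lists, leaving out 1 library took the unadjusted P above 0.05 in WT for *Adam12*, *Adam8*, *Adamts14*, *Adamts17*, *Lcn2*, *Itga2*, *Col1a2* and *Sparc*. It did so between the wounded genotypes for *Adam12*, *Adamts13*, *Adamts14*, *Itgb1*, *Col5a2* and *Tnc*, and over both genotypes for *Adamts2*, *Plaur*, *Col5a1*, *Col1a2* and *Col6a2*.

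Marker genes of keratinocytes and of other skin cells were read in the same libraries, and those counted here and below as higher or lower had an unadjusted P under 0.05. The summed CPM of 6 basal keratinocyte markers, led by *Krt14*, was 30890 to 44746 in the 7 libraries, and none of the 6 had an unadjusted P under 0.05 in the 3 comparisons by edgeR's quasi-likelihood test. The 6 suprabasal markers, led by *Krt1*, summed to 6305 and 6958 CPM in unwounded WT, 3705 and 5405 in wounded WT, 9529 in the unwounded cKO-labelled library and 6736 and 8410 in the wounded ones. In WT 3 of them were lower after wounding (*Krt1* -0.66 and *Krt10* -0.45, or -0.32 and -0.25 without WT wounded replicate 1, and *Sbsn* -0.37), 4 were higher in the cKO-labelled than in the WT wounded libraries, among them *Krt10* (0.87), *Krt1* (0.77, or 0.43 without WT wounded replicate 1) and *Dsg1a* (0.53), and 3 were lower over both genotypes, among them *Sbsn* (-0.47). The 5 markers of wound keratinocytes, led by *Krt16*, summed to 4469 and 5570 CPM in WT unwounded libraries, then 6523 and 9689 CPM in WT wounded libraries. They summed to 2623 CPM in the unwounded cKO-labelled library and 7025 and 4850 CPM in the wounded ones. In WT 4 of the 5 were higher after wounding (*Krt16* 0.64 and *Itga5* 1.20, or 0.38 and 0.80 without WT wounded replicate 2), 2 were lower between the wounded genotypes (*Krt17* -0.71, and *Itga5* -0.84, or -0.44 without WT wounded replicate 2) and 4 were higher over both genotypes (*Krt16* 0.74). WT wounded replicate 2 was the highest library for this sum as for *Mmp9*, *Mmp10* and *Mmp13*, and the part of cell state in those levels was not tested.

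White blood cells are a known source of *Mmp9*, and the sort was set to remove them. Of 7 neutrophil markers in the tables, 3 had 0 counts in all libraries, and the sum, led by *Cxcr2*, was 2.78 and 6.19 CPM in WT unwounded libraries, then 1.98 and 3.89 CPM in WT wounded libraries. It was 1.04 CPM in the unwounded cKO-labelled library and 5.06 and 3.43 CPM in the wounded ones. Most of the sum was *Cxcr2*, with 5.41 of 6.19 CPM in WT unwounded replicate 2, and Elane, Retnlg and Ngp were the markers at 0. The part of neutrophils in the *Mmp9* counts was not tested. The 6 general leukocyte markers, led by *Ptprc*, summed to at most 0.788 CPM, and 2 of them were at 0 in all libraries. The 8 macrophage markers, led by *Cd68*, summed to 4.65 and 1.73 CPM in WT unwounded libraries, then 5.52 and 8.11 CPM in WT wounded libraries, and to 2.07 in the unwounded cKO-labelled library and 4.53 and 8.05 in the wounded ones. Of 5 tested, *Lyz2* alone was higher in WT (unadjusted P = 0.00566) and over both genotypes (unadjusted P = 0.00149), and none between the wounded genotypes. It was at 0 in all 3 unwounded libraries and at 0.961, 2.40, 0.591 and 2.80 CPM in the wounded ones. Macrophages also make *Mmp9* and *Timp1*, and the part of such cells in those counts was not tested. The 6 Langerhans cell markers summed to 209 to 448 CPM, of which *Epcam*, also an epithelial gene, made 187 to 436 CPM. Cd207, which encodes langerin and defines these cells, was at most 0.581 CPM and at 0 in 3 libraries, so the sum is no measure of them. In WT 2 of them were higher after wounding, among them H2-Aa (1.75), as over both genotypes (H2-Aa 1.47), and *Epcam* was lower between the wounded genotypes (-0.58, or -0.26 without WT wounded replicate 1). The 5 erythroid markers, led by *Alas2*, summed to at most 0.910 CPM, with 4 of the 5 at 0 in all libraries. No neutrophil, leukocyte or erythroid gene tested had an unadjusted P under 0.05 in the 3 comparisons by edgeR's quasi-likelihood test.

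Markers of dermal cells and melanocytes were read in the same way. The 8 fibroblast markers, led by *Fbln2*, summed to 42.5 and 25.5 CPM in unwounded WT, 41.6 and 123 in wounded WT, 15.9 in the unwounded cKO-labelled library and 50.4 and 57.8 in the wounded ones. In WT 2 of 6 tested were higher after wounding (*Fbln2* 2.04, or 0.86 without WT wounded replicate 2, and *Col1a2*, also among the interstitial genes, 1.17), 1 was lower between the wounded genotypes, and 4 were higher over both genotypes, among them *Fbln2* (2.099), *Col1a2* (0.88) and *Dcn* (3.37). The 8 endothelial markers, led by *Pecam1*, which encodes the CD31 of the sort, summed to 1.94 and 4.34 CPM in unwounded WT, 24.0 and 10.96 in wounded WT, 0.815 in the unwounded cKO-labelled library and 11.3 and 10.9 in the wounded ones. Of these, 3 were higher in WT (*Cdh5* 3.46, and *Pecam1* 2.49 and *Kdr* 4.20, which were 1.51 and 1.32 without WT wounded replicate 1) and 4 over both genotypes, among them *Cdh5* (4.05) and *Kdr* (4.80). The 7 mural cell markers, led by *Notch3*, summed to 169 to 293 CPM. In WT 2 of 5 tested were higher after wounding (*Acta2* 3.21, and *Tagln* 3.24, which was 0.34 without WT wounded replicate 1), 3 were lower between the wounded genotypes, among them *Acta2* (-2.35, or -1.56 without cKO-labelled wounded replicate 1) and *Cspg4* (-0.54, or -0.15 without WT wounded replicate 1), and over both genotypes 1 was higher and 1 lower. The 5 melanocyte markers, led by *Dct*, summed to 2.52 and 1.07 CPM in unwounded WT, 9.55 and 5.51 in wounded WT, 2.15 in the unwounded cKO-labelled library and 6.17 and 7.07 in the wounded ones. In WT 2 of 4 tested were higher after wounding (*Dct* 2.83, *Tyr* 4.90), and *Dct* was higher over both genotypes (2.86). WT wounded replicate 1, the library with 220 CPM of *Timp3*, had the highest endothelial sum. The mural sum was highest in the unwounded cKO-labelled library (293 CPM against 250 CPM), and *Notch3* and *Cspg4* made most of it in every library. Of the other 5 mural markers, *Acta2* (16.5 CPM), *Tagln* (11.9 CPM) and *Myh11* (1.86 CPM) were highest in WT wounded replicate 1, while Pdgfrb and Rgs5 were at most 0.535 and 0.0657 CPM in any library. WT wounded replicate 2, with 38.8 CPM of *Mmp9*, had the highest fibroblast sum, and *Fbln2* alone made 76.2 of its 123 CPM. The part of these cells in the members' levels was not tested. Among the marker genes named, leaving out 1 library took the unadjusted P above 0.05 in WT for *Krt1*, *Krt10*, *Sbsn*, *Krt16*, *Itga5*, H2-Aa, *Col1a2*, *Cdh5*, *Kdr*, *Pecam1*, *Tagln*, *Dct* and *Tyr*. It did so between the wounded genotypes for *Dsg1a*, *Itga5*, *Epcam*, *Acta2* and *Cspg4*, and over both genotypes for H2-Aa, *Col1a2*, *Dcn* and *Kdr*.

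The genes most like *Mmp9* and *Mmp13* over the 7 libraries were found by the root mean square difference of log2 CPM, each gene centred on its own mean, among 14044 other genes tested. For *Mmp13* they were *Praf2* (0.17), *Tubb6* (0.24), *Mcam* (0.26), *Dsc2* (0.28) and *Sirt4* (0.29), against a median of 0.90 over all genes. *Tubb6*, a tubulin, had 55.5 and 61.8 CPM in unwounded WT, 86.3 and 148 in wounded WT, 30.2 in the unwounded cKO-labelled library and 97.2 and 60.9 in the wounded ones. It shared with *Mmp13* a peak in WT wounded replicate 2, the lowest value in the unwounded cKO-labelled library and a higher replicate 1 among the cKO-labelled wounded libraries. For *Mmp9* the nearest were *Hmga2* (1.43), *Prelid2* (1.56), *Bmpr1b* (1.59), *Sparcl1* (1.64) and *Gpha2* (1.64), against a median of 2.95. All of these 5 were scarce, with *Hmga2*, an architectural chromatin protein, at 0 and 0.357 CPM in WT unwounded libraries, then 2.22 and 5.25 CPM in WT wounded libraries.

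Open chromatin at the members was read from the region lists, which hold 10769 regions for WT unwounded, 36872 for WT wounded, 29364 for cKO-labelled unwounded and 22474 for cKO-labelled wounded cells. With 1 list per condition there is no replicate check, and the lists differ in length. A listed region lay in or within 5 kb of 5 of the 10 members in WT unwounded cells, against 33.3% of 23376 genes. It was 7 of 10 in WT wounded (60.7% of genes), 7 of 10 in cKO-labelled unwounded (56.7%) and 8 of 10 in cKO-labelled wounded cells (47.7%). The longest list was thus not the one with most members. With every list limited to the 10769 regions of smallest P, it was 5 of 10 in WT unwounded (33.3% of genes), 4 of 10 in WT wounded (30.3%), 6 of 10 in cKO-labelled unwounded (31.6%) and 6 of 10 in cKO-labelled wounded cells (30.4%). *Mmp13* and *Timp1* had none in any list.

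*Mmp3* (chromosome 9, 7445822 to 7455975, plus strand) had a region over or just past its start in 3 lists, not in WT unwounded cells. It spanned 7445665 to 7446214 in WT wounded (fold enrichment over the local background 4.87), 7445640 to 7446142 in cKO-labelled unwounded (4.60) and 7445826 to 7446088 in cKO-labelled wounded cells (4.92). The last of these begins 4 bases after the annotated start and covers coding and untranslated exon sequence. *Mmp3* RNA was lowest in the unwounded cKO-labelled library, where the region was listed, and was 29.2 and 38.7 CPM in WT unwounded cells, where it was not. With lists of equal length, the region was listed in both cKO-labelled conditions and not in WT wounded cells.

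*Mmp10*, on the same chromosome from 7502352 to 7510240, had a region at its end, over the last coding exon and the 3′ untranslated region, in all 4 lists. Its fold enrichment was 4.82 in WT unwounded, 8.80 in WT wounded, 5.61 in cKO-labelled unwounded and 6.21 in cKO-labelled wounded cells. In WT wounded cells it spanned 7509774 to 7510190 and ranked 317 by P among the 36872 regions. The same list, the longest, also held regions 899 and 2757 bases upstream of *Mmp10*, from 7501221 to 7501453 (fold enrichment 4.34, rank 17760) and from 7499411 to 7499595 (3.28, rank 35875). Both drop out with lists of equal length. *Mmp9* had a single region, in cKO-labelled wounded cells, from 164938713 to 164938898 on chromosome 2, which is 1882 bases upstream (fold enrichment 4.22, rank 14132) and also drops out at equal length. No list held a region at the start of *Mmp9*, also not that of WT wounded cells, where its RNA was highest.

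The remaining members with regions had them mostly inside the gene. *Mmp14*, on chromosome 14 from 54431612 to 54445364, had one inside the gene in each list. In WT unwounded cells it spanned 54433080 to 54433362 (fold enrichment 3.01), over an exon of a noncoding transcript. In WT wounded cells it lay further on, from 54434025 to 54434538 (3.91), over untranslated exon sequence. In the cKO-labelled lists this latter place had 4.72 before and 4.25 after wounding. The WT wounded list also held a region 3778 bases past the end of *Mmp14*, from 54449142 to 54449389 (3.89, rank 26568), which drops out at equal length. *Mmp28*, on chromosome 11 from 83440768 to 83463071 on the minus strand, had an intronic region in all 4 lists, from 83455575 to 83456055 in WT wounded cells, with a fold enrichment of 3.37, 5.48, 4.73 and 4.42 in the order of the lists above. *Timp3*, on chromosome 10 from 86300372 to 86349506, had an intronic region in all 4 lists, from 86310430 to 86311103 in WT wounded cells, with 4.47, 5.66, 6.04 and 4.57 in the same order. A wider one, from 86339508 to 86340816, was also in all 4 lists. A region over the *Timp3* start, from 86300186 to 86300513 (3.15), stood in the WT wounded list alone, at rank 35972 of 36872, and drops out at equal length. *Timp2*, on chromosome 11 from 118301069 to 118355740 on the minus strand, had an intronic region in 3 lists and none in WT unwounded cells, from 118346744 to 118347012 in WT wounded cells (4.53). The region counted for *Mmp19* lay 3934 to 4387 bases beyond its end, at the starts of *Dnajc14* and *Tmem198b*, and so may belong to those genes. With lists of equal length the *Timp2* region was in cKO-labelled wounded cells alone, the *Mmp14* region was not in WT wounded cells, the intronic *Mmp28* region was not in cKO-labelled wounded cells, and the 2 *Timp3* regions of all 4 lists were still in all 4.

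**Figure D3:**
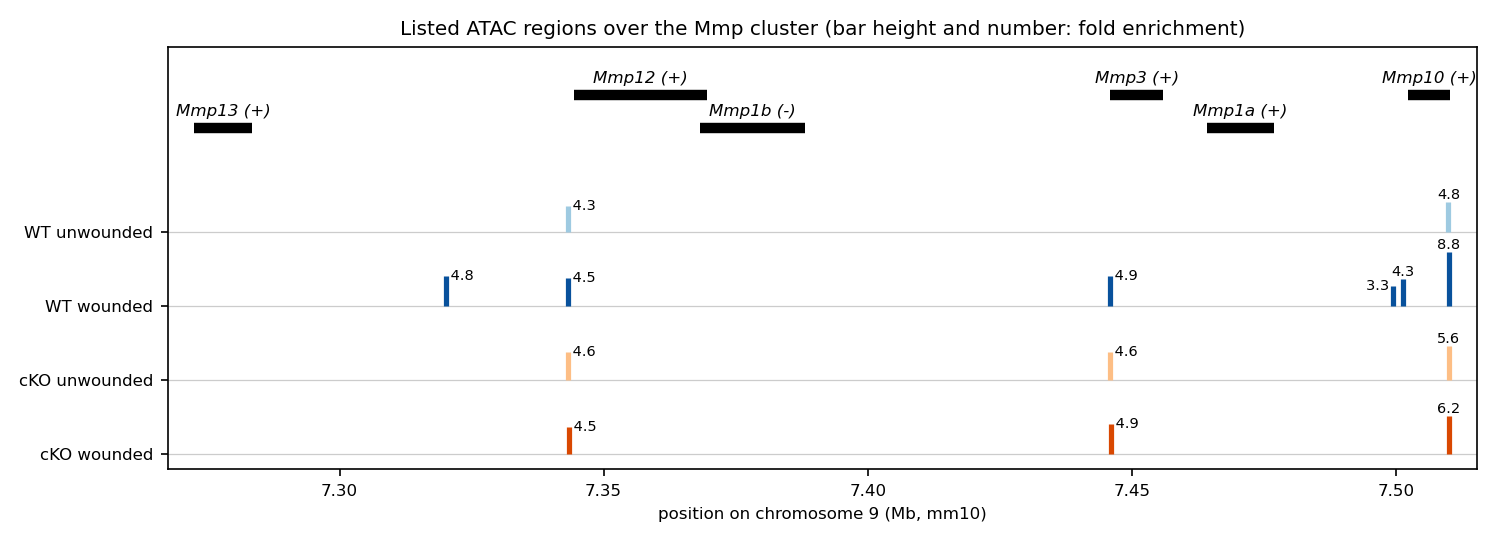
Map of the Mmp cluster on chromosome 9 (horizontal axis, position in Mb, mm10) with 6 genes as black bars and the listed ATAC-seq regions of 4 conditions below, where bar height and number give fold enrichment. WT wounded cells, with the longest list, have 6 regions (1 with lists of equal length), WT unwounded cells 2 and each cKO-labelled condition 3 (unchanged), and *Mmp13* has none within 5 kb.

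*Mmp13*, *Mmp3* and *Mmp10* lie in a cluster on chromosome 9 with *Mmp12*, *Mmp1b* and *Mmp1a*. Across the 247.727 kb from 5 kb before *Mmp13* to 5 kb after *Mmp10* there were 2 regions in WT unwounded, 6 in WT wounded, 3 in cKO-labelled unwounded and 3 in cKO-labelled wounded cells. With every list limited to the 10769 regions of smallest P, a count added after the regions were seen, it was 2, 1, 3 and 3 in the same order, so WT wounded cells went from the most regions to the fewest. A region upstream of *Mmp12* was in all 4 lists, with a fold enrichment of 4.26 to 4.58. One between *Mmp13* and *Mmp12*, from 7319876 to 7320319 (4.82), was listed in WT wounded cells alone, at rank 12770 by P, past the length of the shortest list.

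Promoters were read as the 250 bases before the start in the RefSeq set for mm10, which had an entry for 8 of the 10 members and none for *Mmp9* and *Mmp19*. The windows were searched for 3 motifs, and each match is a description of letters only. TGAGTCA, the AP-1 motif, was searched on both strands (its other strand reads TGACTCA), and 4.46% of 32851 promoter windows hold it. It was in the windows of *Mmp3*, *Mmp10* and *Mmp13* and in none of the other 5 members with an entry. Among the other family genes it was in *Mmp1a*, *Mmp1b* and, in 1 of 2 windows each, *Mmp7* and *Mmp12*, which also lie on chromosome 9, and not in *Mmp8*, *Mmp20* and Mmp27 of the same chromosome. TATAAA, on the strand of the gene, is in 7.59% of windows and was in the same 3 members. AACCNGTT, a form of the GRHL motif searched on both strands, is in 1.79% of windows and was in none of the 8 members' windows. The 150 bases before the start of the 3 members are shown because they carry the AP-1 match (in capitals) within 63 bases of the start and, for *Mmp3*, lie in the open region of WT wounded and cKO-labelled unwounded cells. They are on the plus strand of chr9:7445672-7445821 (*Mmp3*), chr9:7502192-7502341 (*Mmp10*) and chr9:7272364-7272513 (*Mmp13*), mm10, from RefSeq.
Mmp3: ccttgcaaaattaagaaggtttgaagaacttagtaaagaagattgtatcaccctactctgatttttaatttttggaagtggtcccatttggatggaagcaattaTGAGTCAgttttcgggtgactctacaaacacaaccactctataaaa
Mmp10: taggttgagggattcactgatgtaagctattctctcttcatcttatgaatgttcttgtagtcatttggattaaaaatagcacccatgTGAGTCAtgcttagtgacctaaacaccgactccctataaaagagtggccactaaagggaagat
Mmp13: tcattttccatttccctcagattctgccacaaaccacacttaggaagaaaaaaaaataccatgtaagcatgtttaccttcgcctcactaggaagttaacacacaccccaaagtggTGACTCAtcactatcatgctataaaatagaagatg

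The match of *Mmp3* spans 7445776 to 7445782, that of *Mmp10* 7502279 to 7502285 and that of *Mmp13*, as TGACTCA, 7272479 to 7272485. Counted back from the RefSeq start they begin 46, 63 and 35 bases before it. Of the 3 genes, *Mmp3* alone had a listed region over this stretch, and neither the RNA levels nor the regions test what binds there.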

How the data were processed

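For RNA-seq the authors deposited 1 table per library, each a list of gene symbols with a whole-number count of reads, not normalized, for 7 libraries. Per the labels, FastQC, kallisto and mm10 were used; which step made the counts, and whether strand was used, is not given in the sources used here. Rows that name no gene were left out: reads aligned to more than 1 place (3.46% to 4.74%) and reads ambiguous between genes (1.34% to 1.45%). For ATAC-seq the authors deposited 1 region list per condition, with a fold enrichment and −log10 p-values and q-values, made with MACS2. CPM was computed over gene rows. Counts were fitted with edgeR 4.0.16 (TMM, filterByExpr, quasi-likelihood test, two-sided, P values adjusted by Benjamini-Hochberg over 14045 of 24421 genes) in 1 fit of 7 libraries in 4 groups, and in an additive fit of genotype and wounding. Of the genes in the count tables, 23376 had a position in the mm10 annotation.

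The text names the 10 members, the other Mmp and Timp genes by count or value, *Grhl3*, the most abundant gene of each marker list, and the genes most like *Mmp9* and *Mmp13*. Of each other list and tested comparison it names up to 3 genes with the smallest unadjusted P under 0.05 whose groups do not overlap. *Spock2*, *Xist*, a few marker genes beside the most abundant and genes that overlap a member were added after their values were seen. Results of some listed genes are not reported here, though the counts and medians of their lists include them. Members and lists were chosen with earlier results of these data known.

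Alternatives were RLE normalization, DESeq2 1.42.0, edgeR's likelihood ratio test, no filter, a replicate block, only the 4 libraries compared, other prior counts, leaving out each library, and other thresholds, windows, overlaps and lengths for the region lists. Software was Python 3.11.15 with pandas 2.3.3, numpy 2.4.6, matplotlib 3.10.9 and scipy 1.17.1, and R 4.3.3 with limma 3.58.1.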

Additional observations from a re-analysis of the deposited data

Results flagged for a closer look

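The fitted difference in wound response between the genotypes had an adjusted p under 0.05 for 4 of 146 tested genes of the lists, of which 3 are given here. The adjusted p of edgeR's quasi-likelihood test (Benjamini-Hochberg over all genes) was 0.0318 for *Mmp9*, 0.0482 for *Spock2* and 3.91e-04 for *Lcn2*.

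These 3 rest on the 1 unwounded cKO-labelled library, from a female by its *Xist* counts, which the fit assumes to vary like the other groups. Without it the difference could not be fitted. *Mmp9* had 0 and 0 counts in WT unwounded, 148 and 599 in WT wounded, 32 in unwounded cKO-labelled and 158 and 47 in wounded cKO-labelled libraries. *Lcn2* had 731 and 1133, 446 and 526, 67, and 536 and 549 counts in the same order, with wounded libraries below unwounded ones in WT and above in the cKO-labelled set (difference 3.76, standard error 0.44). *Spock2* had 239 and 213, 231 and 142, 1196, and 255 and 196 counts (difference -2.29, standard error 0.44). For *Lcn2* and *Spock2* the unwounded cKO-labelled library lay outside the range of the other 6 libraries. Sex and genotype cannot be told apart in it, so these values do not show that the response differs by genotype.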

How the results depend on the processing

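Of 1283 fold changes under another setting, 1166 kept their direction and their side of the threshold, 12 lost and 86 gained an adjusted p under 0.05 in the same direction, and 19 changed sign. All 19 came from leaving out 1 library and none had been called; the cause was not tested.

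In WT wounded against unwounded libraries, members with an unadjusted P under 0.05 went from 4 to 2 with DESeq2, and from 1 to 5 over the libraries left out. With an adjusted p it was 1, against 2 without a filter, 0 with only the 4 libraries compared and 0 to 2 over the libraries left out. Between the wounded genotypes it was 2, against 1 with DESeq2, 4 without a filter, 1 with only the 4 libraries compared and 0 to 4 over the libraries left out. With an adjusted p it was 0, against 1 without a filter and 0 to 1 over the libraries left out. Over both genotypes, 0 members with an adjusted p became 1 with DESeq2, 3 with the likelihood ratio test, 4 without a filter and 0 to 1 over the libraries left out. For the genotype difference of the response, 3 became 5 without a filter and 1 to 4 over the libraries left out, and with an adjusted p 1 became 0 to 2. Counts over all genes under these settings are given below, except unadjusted ones over the libraries left out. For the 2-fold rule, leaving out a wounded library leaves 1 wounded against 1 unwounded library. That is an easier rule to meet, and its share over all genes was not computed, so no count of members is given for it. Members with a region in WT unwounded cells went from 5 (33.3% of all genes) to 3 (28.5%) at a q-value of at most 0.01 and 2 (22.9%) at a fold enrichment of at least 4, and in WT wounded cells from 7 (60.7%) to 4 (30.3%) with lists of equal length. Regions over the cluster on chromosome 9 went from 6 to 1 in WT wounded cells in the same way, an alternative chosen after seeing the data, and did not change in the other 3 lists.

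The log2 fold changes that crossed 0 when 1 library was left out ranged as follows. In WT, *Mmp3* went from -0.52 to 0.29, *Mmp14* from -0.14 to 0.29, *Mmp28* from -0.52 to 0.76 and *Timp3* from -0.061 to 1.64. Between the wounded genotypes, *Mmp3* went from -0.038 to 0.77, *Mmp10* from -2.68 to 0.10, *Mmp13* from -1.43 to 0.26 and *Timp3* from -1.15 to 0.55. Over both genotypes, *Mmp3* went from -0.048 to 0.69, *Mmp14* from -0.34 to 0.066 and *Mmp28* from -0.078 to 0.55. In the genotype difference, *Mmp10* went from -1.54 to 1.67, *Mmp13* from -0.42 to 1.29, *Mmp28* from -0.41 to 0.87 and *Timp3* from -1.49 to 0.20.

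Over all genes, those with an adjusted p under 0.05 in WT went from 4 to 24 with DESeq2, 49 with the likelihood ratio test, 96 without a filter, 0 with only the 4 libraries compared and 0 to 29 over the libraries left out. Between the wounded genotypes 0 became 3, 1, 51, 0 and 0 to 21 in the same order. Over both genotypes 5 became 126, 117 and 305 with the first 3 of these and 0 to 119 over the libraries left out, and for the genotype difference 26 became 85, 98 and 203, and 11 to 88. At an unadjusted P under 0.05, 680 genes in WT became 735 with DESeq2 and 1117 with the likelihood ratio test. They became 907 (of 16280) without a filter and 599 (of 12674) with only the 4 libraries compared. Between the wounded genotypes 567 became 556, 873, 776 (of 16280) and 511 (of 12703) in the same order. For the genotype difference 951 became 1177 (of 16280) without a filter.

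Whether libraries of the same number come from 1 mouse is not stated in the sources used here, and unwounded skin was taken away from the wounds. The unwounded cKO-labelled library shares its number with a wounded library of the other sex (14854 against 25 counts of *Xist*), so there the number does not mark a mouse. Deviations of same-numbered libraries correlated at 0.15 between the 2 WT groups, the one set where a shared mouse could be seen, and at -0.01 and -0.04 between groups of different genotype, which share no mouse. With the replicate number as a block, 6 genes in WT and 78 for the genotype difference had an adjusted p under 0.05, and the counts of members stayed within 1.5 times. The unadjusted P then crossed 0.05 for *Timp1* (0.0789) and *Timp2* (0.0254) in WT, *Mmp14* between the wounded genotypes (0.0351), *Mmp10* (0.0733) and *Timp3* (0.116) over both genotypes, and *Mmp14* in the genotype difference (0.0129). Depth limits *Mmp10*, *Mmp19* and *Timp1*, with at most 89, 8 and 14 counts per library.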
